A study of Mus musculus with 30 samples.

Results

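The miR-200 family comprises 5 of the 2194 named small RNA features that were measured in each of 5 mouse organs: Mir200a, Mir200b, Mir429, Mir200c and Mir141. They were taken by symbol, and all 5 were found with counts in every organ. The groups were Ftsj1_DF mice, which the series describes as deficient in Ftsj1, and WT mice. Each genotype was represented by 3 male mice aged 4 months, and brain, heart, kidney, liver and spleen of the same 6 mice gave 30 whole-organ small RNA libraries. In each genotype 2 mice came from a litter of 4 brothers and 1 mouse from a litter of 2 brothers. Neither the Ftsj1 allele nor the strain is named in the labels, and the mice had no special treatment. Ftsj1 encodes an enzyme that adds methyl groups to the ribose of certain transfer RNAs. Its messenger RNA is not among the features, and the genotypes were therefore taken from the labels alone.

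MicroRNAs of the miR-200 family are best known as epithelial microRNAs. They repress the transcription factors Zeb1 and Zeb2, which in turn repress the miR-200 genes, and this mutual repression helps to hold cells in an epithelial state. In the brain the family is associated with olfactory neurogenesis, and in the kidney with tubular epithelium. The 5 hairpins lie in a pair of clusters, each of which is transcribed as a common primary transcript.

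The mature sequences show how the family divides by target recognition rather than by cluster. They are the 3′-arm microRNAs from RefSeq, GRCm38.p6 build, written 5′ to 3′ with the seed, bases 2 to 8, in capitals.
Mir200b: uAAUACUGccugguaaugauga
Mir429: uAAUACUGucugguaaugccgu
Mir200c: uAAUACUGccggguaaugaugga
Mir200a: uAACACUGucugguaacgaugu
Mir141: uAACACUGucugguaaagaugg
Mir200b, Mir429 and Mir200c share a seed that 3 of the 1738 mature mouse microRNAs in the RefSeq table carry. Mir200a and Mir141 share the other seed, which 2 of the 1738 carry. The seeds differ at 1 base, written U4C from Mir200b to Mir200a with positions counted from 1 at the 5′ end. Outside the seed and over their common length, Mir200b and Mir200c differ by U11G and A22G, and Mir200c is longer, with 23 bases against 22, and Mir200a and Mir141 differ by C17A and U22G. Each cluster therefore holds both seeds.

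In GRCm38.p6 the first cluster is on the minus strand of chromosome 4, with Mir200b at chr4:156055681-156055750, Mir200a at chr4:156054896-156054985 and Mir429 at chr4:156053905-156053987. It spans 1846 bases and lies in an intron of the protein-coding gene Ttll10 and within the noncoding gene Gm13648, of which Mir429 overlaps an exon. The second cluster is on the minus strand of chromosome 6, with Mir200c at chr6:124718322-124718390 and Mir141 at chr6:124717914-124717985. It spans 477 bases and lies in an intron of the noncoding gene Gm15884, and Mir141 also overlaps an exon of Gm29008. The features counted were the hairpins, so the 2 arms of a precursor are not separated in any value here.

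The deposited tables give, for each organ, a mean of normalised counts over the 6 libraries and the log2 fold change between genotypes, and no value per library. The means over all named features summed to between 8511372 in heart and 21787131 in kidney. Summed lists of marker microRNAs were highest in the labelled organ: neuronal precursors took 20.05% of the total in brain, striated muscle precursors 11.6% in heart, Mir122 26.2% in liver, kidney precursors 21.6% in kidney and leukocyte precursors 1.47% in spleen. Of the 4 kidney markers 3 were highest in kidney, and Mir204 was higher in brain, at 0.397%, than in kidney, at 0.0124%. In liver and spleen, pancreas precursors were also present, at 0.0439% and 0.322%, and their values are given beside the results they accompany. The tables do not state which genotype is the numerator of the fold change. Whole reads per library could be recovered from the deposited values for 15 of the 25 pairs of member and organ, and they fall into 3 libraries that raise the fold change, called positive libraries here, and 3 that lower it, the negative libraries. No genotype is assigned to either kind. Libraries are numbered within an organ, and a number does not mark the same mouse in another organ.

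The family was most abundant in kidney and least abundant in heart. Summed over the 5 precursors, it took 3.19% of the total in kidney, 1.82% in brain, 0.260% in spleen, 0.128% in liver and 0.0281% in heart. In kidney Mir200b, at 1.79%, ranked 11 of the 1025 features with counts, and Mir200a, at 0.954%, ranked 23. In brain Mir200b, at 0.711%, ranked 29 of 1030 and Mir200a, at 0.685%, ranked 30. In heart the same precursors held 0.0123% and 0.00894%.

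Mir200b was the most abundant and Mir141 the least abundant member in every organ, and this order was the same per base of hairpin. Mir429 came next after Mir200a in kidney, at 0.328%, in brain, at 0.308%, and in liver, at 0.00925%, while Mir200c took that place in spleen, at 0.0366% against 0.0142% for Mir429, and in heart, at 0.00340% against 0.00310%. Mir141 ranged from 0.0191% in kidney to 0.000299% in heart, where it rested on 184 reads over the 6 libraries. In whole-organ samples, fewer cells of a type and less RNA per cell cannot be told apart, so a low share does not say how much the epithelial cells themselves held.

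**Figure D1:**
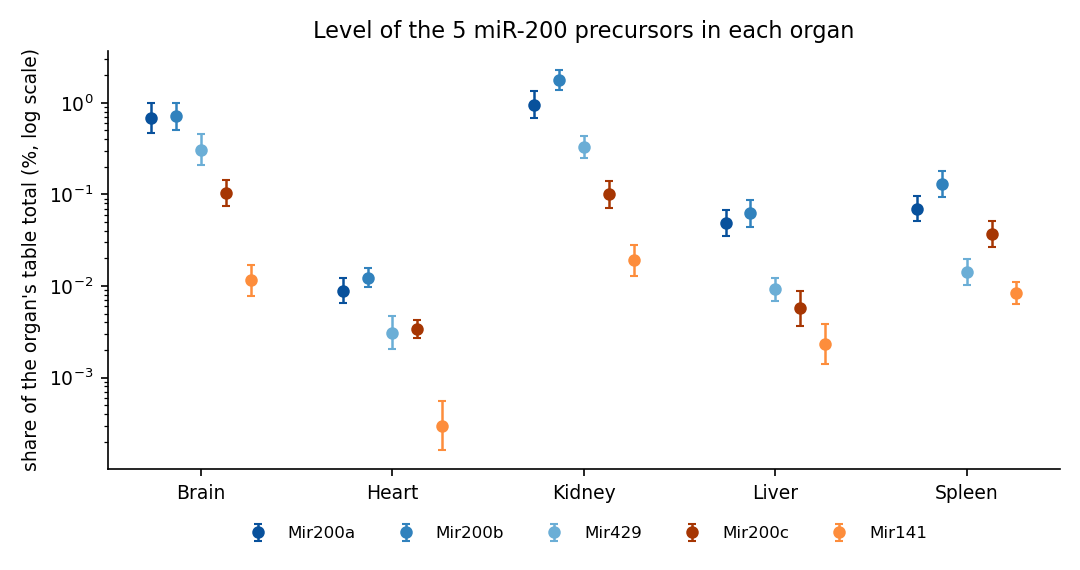
Each point is the share of a precursor in the summed deposited means of its organ (y axis, percent, log scale), and bars extend by 1 standard deviation between libraries as implied by the deposited standard error. Kidney and brain carry the highest shares, Mir200b reaching 1.79% in kidney, and Mir141 in heart the lowest, at 0.000299%.

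Kidney and brain were not separated beyond the spread between libraries. The family share in kidney was 1.75 times that in brain, a log2 difference of 0.81 against a summed library SD of 0.93. By member, Mir200b alone was apart, 2.52 times higher in kidney. For Mir200a the ratio of kidney to brain was 1.39, for Mir429 1.06 and for Mir141 1.66, all within the spread, and Mir200c was 1.04 times higher in brain than in kidney, likewise within it. The other neighbours in the order of family shares differed by more than the spread: brain was 6.99 times above spleen, spleen 2.03 times above liver and liver 4.56 times above heart. Kidney exceeded heart 114-fold.

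Shares of a total depend on the other microRNAs of the organ, and the organs' tables were normalised separately. Scaled instead by the median of ratios over 326 features, the ratio of kidney to brain was 3.18, and without the 24 features among the 10 highest of any organ it was 3.21. Both exceed the summed spread. The first of these scalings also put liver slightly above spleen, at 0.0667 and 0.0637 of the kidney level, so the order of liver and spleen is not settled. Under all 4 scalings tried, kidney was the highest organ and heart the lowest for the family and for each member, with the exception of Mir200c, which was highest in brain under the 2 share scalings. Relative to kidney, the median of these 326 features shifted by 0.74 in brain, 0.68 in spleen, 0.52 in heart and -0.53 in liver on the log2 scale when shares were used.

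The 2 clusters contributed unequally over the organs. The Mir200a/Mir200b/Mir429 cluster took 3.07% in kidney, 1.70% in brain, 0.215% in spleen, 0.120% in liver and 0.0244% in heart. The Mir200c/Mir141 cluster took 0.120% in kidney, 0.116% in brain, 0.0450% in spleen, 0.00805% in liver and 0.00369% in heart. The second cluster thus reached nearly the same share in kidney and brain, with a ratio of 1.03, and its range over the organs was 32.4-fold against 126-fold for the first.

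The first cluster exceeded the second 25.7-fold in kidney, 14.9-fold in liver, 14.8-fold in brain, 6.60-fold in heart and 4.78-fold in spleen. These ratios are taken within a table and do not depend on the scaling between organs. The log2 ratio in kidney exceeded that in spleen by 2.43, against summed library SDs of 1.83, and that in heart by 1.96, against 1.71, while the other 8 pairs of organs lay within the spread. Mir200c and Mir141 made up 17.3% of the family in spleen and 13.2% in heart, but 3.75% in kidney. Grouped by seed instead of by cluster, the seed of Mir200b, Mir429 and Mir200c accounted for between 60.2% of it in liver and 69.8% in spleen.

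Within a cluster, the ratios between members varied over the organs by less than the summed library SDs of the members, in all 10 pairs of organs for each ratio. Mir200a was 0.964 times Mir200b in brain, 0.783 in liver, 0.724 in heart, 0.537 in spleen and 0.533 in kidney. Mir429 was 0.434 times Mir200b in brain and 0.109 in spleen, with heart at 0.251, kidney at 0.183 and liver at 0.149. Mir141 was 0.409 times Mir200c in liver, 0.229 in spleen, 0.190 in kidney, 0.111 in brain and 0.0880 in heart. These are ratios of counts per hairpin, not per length. The widest, Mir429 over Mir200b in brain against spleen, differed by 1.9956 on the log2 scale, against summed SDs of 1.9967.

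**Figure D2:**
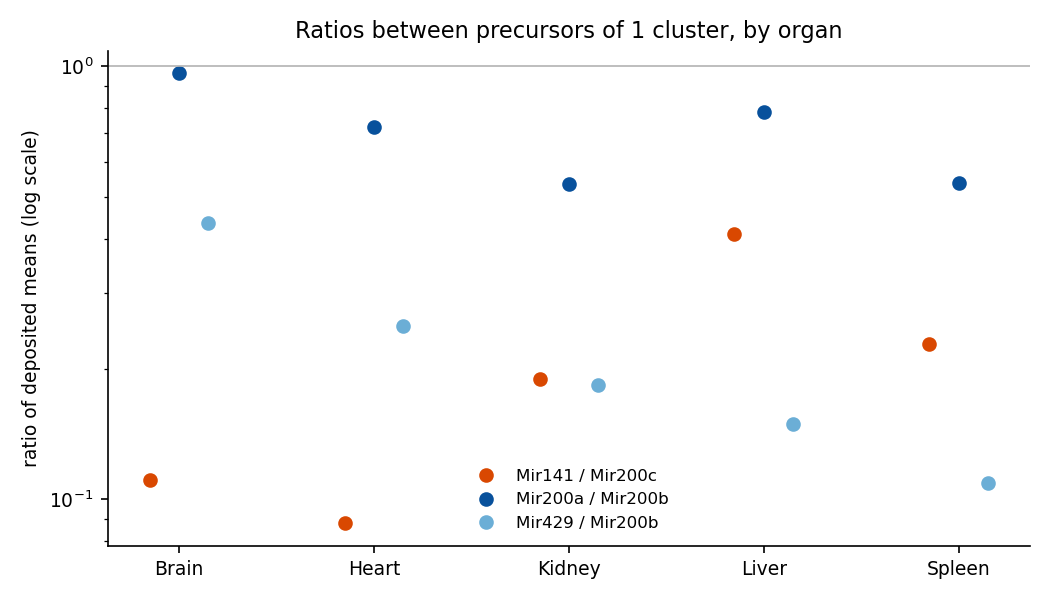
Each point is the ratio of the deposited means of a pair of precursors from the same cluster in an organ (y axis, log scale), and the grey line marks equal means. Mir429 over Mir200b is highest in brain, at 0.434, and lowest in spleen, at 0.109, whereas Mir141 over Mir200c is highest in liver, at 0.409, and lowest in heart, at 0.0880.

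Recovered reads give the ratio library by library, which the summed SDs cannot, since members can vary together. In spleen the ratio of Mir429 to Mir200a lay between 0.184 and 0.217 over the 6 libraries, a 1.18-fold range, although Mir200a itself varied 3.86-fold. In heart the same ratio varied 1.91-fold, from 0.218 to 0.417, just above the spleen range, and in liver 1.64-fold. The ratio of Mir141 to Mir200c was less even: it varied 2.28-fold in spleen, 3.87-fold in heart and 7.21-fold in liver, where it was 0.579, 0.599 and 0.307 in the positive libraries, against 0.540, 0.0927 and 0.668 in the negative libraries. A single liver library, negative library 2, set the low end with 143 reads of Mir141 and 1543 reads of Mir200c. In heart the low end, 0.0343, rested on 6 reads of Mir141. The heart ratios, up to 0.133, all lay below the spleen ratios, from 0.180 to 0.409.

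The profiles of the 2 clusters over the 5 organs were closer to each other than either was to any of 573 other microRNA features. The likeness measure was the root mean square distance between centred log2 shares over the 5 organs. The clusters were 0.88 apart, while the median distance of the other features was 2.99 from the first cluster and 2.50 from the second. Mir200a and Mir200b were 0.33 apart, the closest pair, and Mir429 and Mir141, at 1.44, the most distant. The 5 features nearest to the first cluster were Mir6953, Mir7226, Mir182, Mir187 and Mir96, at distances of 1.37 to 1.55. The 5 nearest to the second were Mir187, Mir3089, Mir222, Mir6948 and Mir7021, at distances of 1.18 to 1.32. Of these, Mir182 and Mir96 belong to the sensory-epithelium miR-183 cluster, and Mir182 took 1.44% in brain and 0.139% in kidney. Some shares were close to the 1e-06 percent added before log2. Mir6953 held 2.5e-06% in spleen, 3.7e-06% in liver and 4.1e-06% in heart, and Mir3089 held 1.2e-06% in liver. With 1e-04 percent added, Mir6953, Mir7226, Mir3089, Mir6948 and Mir7021 were no longer among the nearest, whereas Mir182, Mir187, Mir96 and Mir222 were.

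The genotype contrast asked whether Ftsj1 deficiency changes these precursors in any organ. In the authors' deposited tables, tested with the DESeq2 Wald test, none of the 25 contrasts had an adjusted p below 0.05. The adjusted p lay between 0.733 and 0.999. At an unadjusted p below 0.05 there was 1, Mir141 in kidney. One WT library each in heart, kidney and liver belongs to a second batch, and which of the recovered libraries it is cannot be read from the tables, so a batch term could not be fitted and no within-batch value is given.

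**Figure D3:**
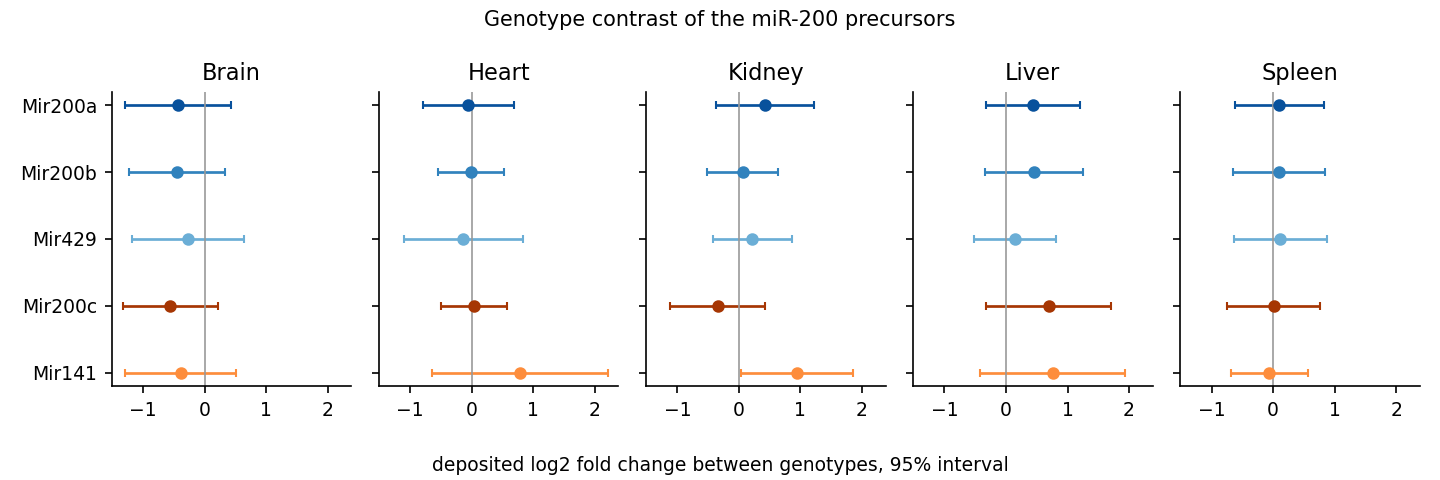
Each panel shows an organ, with the deposited log2 fold change between genotypes on the x axis and its 95% interval as a bar. All 5 points are below 0 in brain and above 0 in liver, and the interval excludes 0 for Mir141 in kidney alone, from 0.04 to 1.86.

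In brain all 5 precursors had negative fold changes, from -0.56 for Mir200c to -0.27 for Mir429, with a median of -0.43 against 0.00 for all features with a mean of at least 10. Such features were negative in 50.1% of cases. In the authors' deposited table no member passed an adjusted p of 0.05, against 0% of all features tested, and none passed an unadjusted p of 0.05, against 2.23%. For Mir200c, the member with the smallest p in brain, the group means implied by the deposited values were 13550 in the positive libraries, against 19982 in the negative libraries. The deposited log2 fold change of Mir200c was -0.56 (SE 0.39, p = 0.156, adjusted p = 0.989 by the authors' DESeq2 test).

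Reads per library were recovered in brain for Mir141 alone. Its normalised counts were 1174, 2822 and 818 in the positive libraries, against 2813, 2690 and 804 in the negative libraries. Of the positive libraries 1 was high and 2 were low, of the negative libraries 2 were high and 1 was low, and the groups overlapped. The deposited log2 fold change of Mir141 in brain was -0.39 (SE 0.46), which is smaller than its standard error. The miR-183 cluster, whose members serve sensory epithelia, also had negative deposited fold changes in brain, of -0.62 for Mir183, -0.66 for Mir96 and -0.59 for Mir182. None of these passed an unadjusted p of 0.05. Of the 10 listed epithelial precursors outside the family, 7 were negative in brain and 3 were positive, namely Mir31, Mir194-1 and Mir194-2. Mir215 was negative without overlap. It had 16.1, 24.8 and 9.59 normalised counts in the positive libraries, against 36.9, 53.4 and 27.0 in the negative libraries. Its deposited log2 fold change was -1.20 (p = 0.0916, adjusted p = 0.989 by the authors' DESeq2 test). The 3 markers of ciliated and olfactory epithelium that reached a mean of 10 were positive, from 0.18 for Mir34b to 1.45 for Mir449a, with a median of 0.24. The groups overlapped for Mir34b. Mir449a is a microRNA of multiciliated cells. Its normalised counts were 64.4, 35.5 and 60.3 in the positive libraries, against 24.6, 13.4 and 20.3 in the negative libraries, without overlap. Its deposited log2 fold change was 1.45 (p = 0.0225, adjusted p = 0.989 by the authors' DESeq2 test). Of brain features with a mean of 1 to 12 and recovered reads, 6.29% had groups without overlap. Those means are lower than the 28.0 of Mir215 and the 36.4 of Mir449a. The part of these cell types in the brain values of the family was not tested.

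In heart, where the family was scarcest, reads were recovered for all 5 members, and the positive and negative libraries overlapped for every member. Mir200a had 543, 854 and 842 normalised counts in the positive libraries, against 319, 841 and 1166 in the negative libraries. Mir200b had 917, 1047 and 1171 in the positive libraries, against 701, 1081 and 1387 in the negative libraries. For both, negative library 1 was the lowest and negative library 3 the highest. Mir429 followed the same libraries, with 164, 299 and 291 in the positive libraries, against 69.6, 276 and 486 in the negative libraries, a 6.98-fold range over the 6 libraries. The heart libraries also differed in depth. Size factors were 2.37 in positive library 1 and 2.28 in negative library 1, against 0.605 to 0.736 in the others. These deepest libraries held the lowest values of Mir200a, Mir200b and Mir429, but not of Mir200c or Mir141.

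In the other cluster negative library 1 was not the lowest. Mir200c had 313, 266 and 299 normalised counts in the positive libraries, against 302, 238 and 316 in the negative libraries, a 1.33-fold range. Mir141 had 34.7, 21.7 and 39.7 in the positive libraries, against 15.8, 8.15 and 32.7 in the negative libraries, highest in positive library 3 and lowest in negative library 2, and the groups overlapped. The ratio of Mir200c to Mir200a was accordingly 0.947 in negative library 1 and 0.271 in negative library 3. Negative library 1 was also lowest for Mir183, with 189 counts, Mir96, with 8.76, and Mir375, a microRNA of endocrine cells, with 34.1. Negative library 3 was highest for all 3, with 590.0, 43.6 and 149. Other epithelial precursors did not follow negative library 1: Mir194-1, with 2155 counts, and Mir215, with 390.0, were highest there, and Mir182 was lowest in positive library 1, with 522, against 579 in negative library 1. Mir205 was lowest in negative library 2. Negative library 3 was also highest for Mir182, Mir205 and the ciliated-cell precursors Mir34b, with 198 counts, and Mir34c, with 272. The deepest libraries, positive library 1 and negative library 1, held the lowest values of Mir183, Mir96, Mir182 and Mir375, but not of Mir194-1, Mir215 or Mir205. The part of the cell types named here, or of depth, in the heart values of the family was not tested.

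The deposited log2 fold changes in heart lay between -0.14 for Mir429 and 0.78 for Mir141, with standard errors of 0.28 to 0.73, and 2 of the 5 were positive, against 48.2% of features with a mean of at least 10. None passed an adjusted p of 0.05, against 1.13% of features with one, nor an unadjusted p of 0.05, against 5.33%. For Mir200b, the most precisely measured, the 95% interval of the log2 fold change was -0.56 to 0.53.

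**Figure D4:**
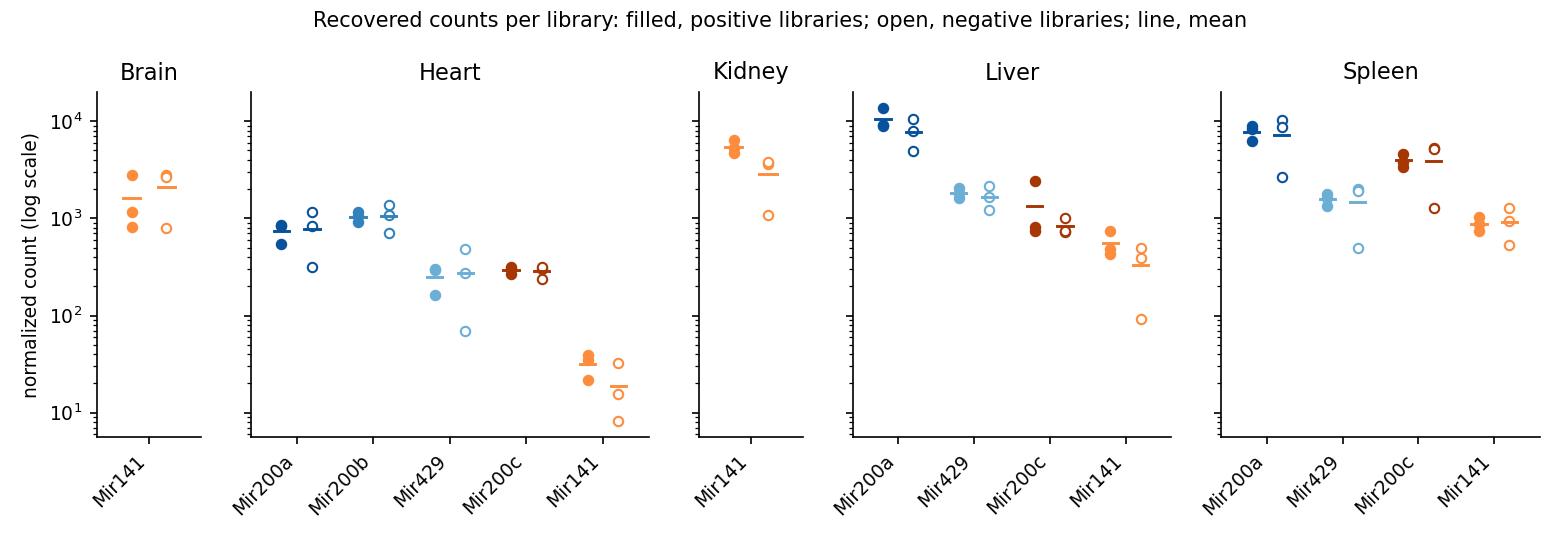
Normalised counts recovered for single libraries (y axis, log scale) for the 15 pairs of member and organ where this was possible, with filled points for the positive libraries, open points for the negative libraries and a line at each mean. The groups are separate for Mir141 in kidney alone, where the positive libraries lie between 4659.9 and 6429 and the negative libraries between 1079.8 and 3827.

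In kidney the deposited log2 fold changes ran from -0.35 for Mir200c to 0.95 for Mir141, members of the same cluster. Mir141 had 5344, 6429 and 4659.9 normalised counts in the positive libraries, against 3603, 1079.8 and 3827 in the negative libraries. Every positive library exceeded every negative library. The means were 5478 ± 892 and 2837 ± 1525 (SD, n = 3 each), and an exact permutation test gave a two-sided p of 0.1, the smallest that 3 against 3 allow. Of the 15 pairs of member and organ with recovered reads, it was the 1 without overlap. Among features with a mean of 1 to 12 and recovered reads, the groups did not overlap for 5.72% in kidney, 6.29% in brain, 7.83% in heart, 6.74% in liver and 6.61% in spleen. These low-count features are not matched to Mir141 in kidney, which had a mean of 4157, and the share at its level was not tested.

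The deposited log2 fold change of Mir141 in kidney was 0.95 (SE 0.46, 95% interval 0.04 to 1.86), a 1.93-fold difference. Its p was 0.0409 and its adjusted p 0.975 by the authors' DESeq2 test over 1022 features, of which 4.5% had an unadjusted p below 0.05 and 0% an adjusted p below 0.05. The difference rested in part on negative library 2: without it the log2 ratio of the group means was 0.56, and over all omissions it lay between 0.56 and 1.23. That library was also the lowest for Mir96, with 583 counts against 1258 to 1680 in the others. It was the lowest for Mir31, with 2579 counts against 3014 to 3545, and for Mir215, with 73.6 against 104 to 1284. It was close to the others for Mir205, a microRNA of stratified epithelium, with 2183 counts. Of the pancreas markers, Mir217 and Mir216a were at 0 reads there, Mir216a also in negative library 3, whereas Mir375 was highest there, with 4636 counts. The part of cell composition in the low value was not tested.

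Mir200c, which shares the Mir141 transcript, had implied means of 19266 in the positive libraries, against 24509 in the negative libraries in kidney, and a deposited log2 fold change of -0.35 (SE 0.40). Mir200a had implied means of 238477 in the positive libraries, against 177120 in the negative libraries, a deposited log2 fold change of 0.43 (SE 0.41). Mir200b, the most abundant member of all, had implied means of 397700 in the positive libraries, against 381438 in the negative libraries, a deposited log2 fold change of 0.06 (SE 0.30, 95% interval -0.52 to 0.64). With Mir429 at 0.22 the median was 0.22, against -0.03 for all kidney features with a mean of at least 10, of which 48.1% were positive. A change of more than 1.56-fold in Mir200b lies outside its interval in either direction.

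In liver all 5 members had positive fold changes. Mir200c had 749, 814 and 2447 normalised counts in the positive libraries, against 731, 1005 and 743 in the negative libraries. Positive library 3 was 2.26 times the mean of all 6, and the other 5 libraries lay between 731 and 1005. Mir200a had 9034, 9025 and 13775 in the positive libraries, against 7979.8, 4962 and 10501 in the negative libraries, again with its highest value in that library. Mir141 had 433, 488 and 750.2 in the positive libraries, against 395, 93.1 and 497 in the negative libraries, and positive library 3 was the highest and negative library 2 the lowest. Mir429 had 1626, 1827 and 2068 in the positive libraries, against 1644, 1221 and 2130 in the negative libraries, and here the highest value was in negative library 3. The groups overlapped for all 4 members with recovered reads. With all 6 libraries the log2 ratio of the group means was 0.76 for Mir141, 0.44 for Mir200a, 0.14 for Mir429 and 0.69 for Mir200c. Without positive library 3 it was 0.49 for Mir141, 0.21 for Mir200a, 0.05 for Mir429 and -0.08 for Mir200c. Without negative library 2 it was 0.32 for Mir141, 0.20 for Mir200a and -0.04 for Mir429, and 0.86 for Mir200c, so both libraries moved the values.

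The same positive library 3 carried pancreas microRNA. Mir216a, a precursor of pancreatic acinar cells, had 2.74, 43.3 and 1698 normalised counts in the positive libraries, against 12.1, 0 and 6.89 in the negative libraries, and Mir216b was read in that library alone, with 9 reads. The summed pancreas markers had implied levels of 16339 in the positive libraries, against 307.7 in the negative libraries, and all 4 were positive, with deposited log2 fold changes of 6.52 for Mir216a, 6.55 for Mir217 and 5.42 for Mir375, none of which carries a deposited p. Without that library the log2 ratio of the group means of Mir200c was -0.08, against 0.69 with it. It stayed positive for the other members with recovered reads, at 0.49 for Mir141, 0.21 for Mir200a and 0.05 for Mir429. Leaving out negative library 2, where Mir216a had 0 reads, moved Mir141 further, to 0.32. Of the other epithelial precursors with recovered reads, Mir215 was highest in positive library 3, with 490 counts against 236 to 369 elsewhere. Mir96 was lowest there, with 618 counts against 646 to 933, and Mir205, with 60.0, lay within the 54.9 to 152 of the others. The part of pancreas tissue in the liver values of the family was not tested. The liver groups also differed in depth, with size factors of 0.4999 to 0.729 in the positive libraries, against 1.45 to 2.15 in the negative libraries.

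The deposited log2 fold changes in liver ran from 0.14 for Mir429 to 0.76 for Mir141, with a median of 0.46 against 0.01 for all features with a mean of at least 10, of which 50.9% were positive. Mir200c had the smallest p of the 5, 0.180, with a log2 fold change of 0.69 (SE 0.52, adjusted p = 0.991 by the authors' DESeq2 test). None passed an adjusted p of 0.05, against 0.229% of features tested, or an unadjusted p of 0.05, against 3.9%.

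In spleen the groups had nearly equal means over all 6 libraries, and a single library stood low for every member with recovered reads. Mir200a had 6303, 8837 and 8262 normalised counts in the positive libraries, against 10393, 8735 and 2694 in the negative libraries. Mir429 had 1357, 1627 and 1789 in the positive libraries, against 1995, 1898 and 500.2 in the negative libraries. Mir200c had 3839, 3409.8 and 4588 in the positive libraries, against 5281, 5197 and 1293 in the negative libraries. Negative library 3 was the lowest for each of these members. Mir141 had 734, 1028 and 879 in the positive libraries, against 1292, 934 and 529.6 in the negative libraries. Negative library 3 was the lowest for Mir141 as well, and negative library 1 the highest for all 4, across both clusters. Without negative library 3 the log2 ratio of the group means was -0.29 for Mir200a and Mir429, -0.41 for Mir200c and -0.34 for Mir141, against 0.10, 0.12, 0.01 and -0.06 with it, in the order Mir200a, Mir429, Mir200c and Mir141.

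Reads were recovered in spleen for 2 of the 4 pancreas markers, and the first of them, Mir216a, followed the same libraries. It had 1349, 2013 and 1168 normalised counts in the positive libraries, against 3683, 3115 and 358 in the negative libraries, so the same libraries were highest and lowest. Mir216b had at most 9 reads in a library, was highest in negative library 2, with 8.16 counts, and was at 0 in negative library 3. The 4 pancreas markers summed to implied levels of 30239 in the positive libraries, against 39003 in the negative libraries, and their share of the total was higher than in any other organ. The 5 other epithelial precursors with recovered reads did not follow 1 pattern in that library. Mir183 had 2087 counts there, against 2044 to 2945 elsewhere, and Mir31 had 258, against 198 to 374. Mir96 was lowest there, with 295 counts against 358 to 494, and Mir205 was at 0 reads, against 5.37 to 33.5 counts in the others. Mir215 was highest there, with 104 counts. The part of pancreas tissue in the spleen values of the family was not tested.

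**Figure D5:**
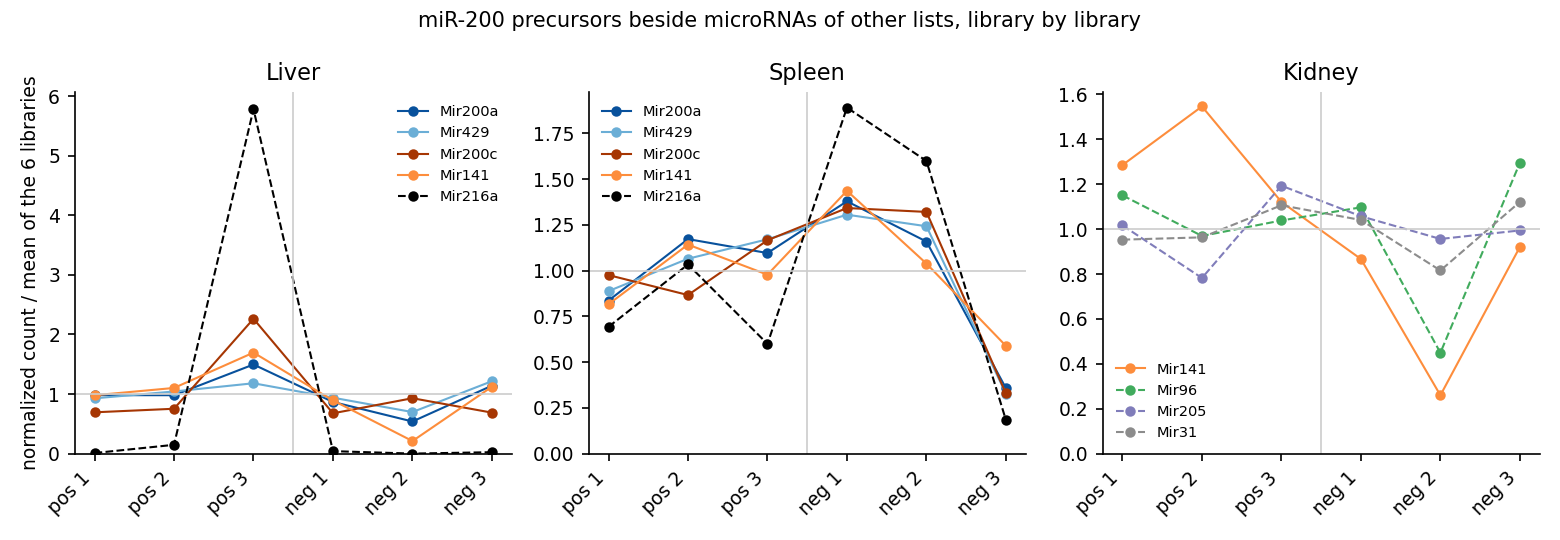
Normalised counts of single libraries divided by the mean of the 6 libraries (y axis) in liver, spleen and kidney, with the 3 positive libraries left of the grey line and the 3 negative libraries right of it. Lines only join values of 1 precursor, and the order within a group has no meaning. Mir216a peaks in positive library 3 of liver, at 5.78 times its mean, where Mir200c is at 2.26, and in spleen it is lowest in negative library 3, at 0.184, with the miR-200 precursors. In kidney Mir141, Mir96 and Mir31 are lowest in the same library, at 0.260, 0.449 and 0.816 of their means, while Mir205 is at 0.956 there.

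The deposited log2 fold changes in spleen lay between -0.06 for Mir141 and 0.12 for Mir429, with 95% bounds between -0.75 and 0.87, and 4 of the 5 were positive, against 49.8% of features with a mean of at least 10. None passed an adjusted p of 0.05, against 0% of all features tested, or an unadjusted p of 0.05, against 3.48%. The median of 0.10 compares with 0.00 for all features with a mean of at least 10.

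Whether the genotype contrast differed between organs was tested with Cochran's Q over the 5 deposited fold changes, which treats the organs of the same mice as independent. No member passed an adjusted p of 0.05 over the 648 features tested, and neither did any other feature (0%). At an unadjusted p of 0.05 the members counted 0, against 2.93% of features. Mir141 had the smallest p, 0.170. Of the 50 member contrasts between single pairs of organs, 1 had an unadjusted p below 0.05, at 0.0409, against 3.02% of all 6480. It was Mir141 in brain against kidney, with log2 fold changes of -0.39 and 0.95 and a difference of -1.34 (SE 0.66). No pair passed after adjustment (0%). The negative values in brain and the positive values in liver are therefore not shown to differ.

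Other microRNAs of epithelial character were examined beside the family. Of a list of 10, comprising Mir203 and Mir205 of stratified epithelium, the miR-183 cluster, Mir31, and the miR-192, miR-194 and miR-215 precursors, no feature reached an adjusted p below 0.05 in any of the authors' deposited tables. Positive fold changes numbered 7 in kidney, 5 in spleen and 4 each in heart and liver, where 48.1%, 49.8%, 48.2% and 50.9% of features with a mean of at least 10 were positive. In brain 7 were negative, against 50.1% of such features. The medians lay between -0.21 in brain and 0.14 in kidney, against -0.003 and -0.033 for all features with a mean of at least 10 in these organs. In kidney 1 of the 10 had an unadjusted p below 0.05, against 4.5% of kidney features. It was Mir215, with a deposited log2 fold change of -1.88 (p = 0.0183, adjusted p = 0.754 by the authors' DESeq2 test), which came from a single negative library with 1284 normalised counts against 73.6 to 183 in the others. This list was most abundant in liver, at 8.21%, with Mir192 in the first place, and it took 3.06% in kidney and 2.68% in brain.

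Mesenchymal and smooth muscle precursors, which the family is often contrasted with, included no member with an unadjusted p below 0.05 in any organ. Of the 8, positive fold changes numbered 5 in spleen, 4 in heart, 3 in kidney and 1 in liver, and 2 were negative in brain, against the same shares of all features as above. Their most abundant member was Mir143, with a deposited log2 fold change of 0.63 in kidney and -0.47 in spleen, except in liver, where it was Mir21a, at 0.09. They took 45.9% of the total in spleen, 29.6% in kidney, 27.9% in liver, 24.4% in heart and 4.92% in brain.

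Of the 7 lists of cell type markers, 1 feature in 1 organ passed an adjusted p of 0.05: Mir34b of the ciliated epithelium list in heart, with 9.92 to 30.3 normalised counts in the positive libraries, against 48.9 to 198 in the negative libraries. Its deposited log2 fold change was -2.23 (adjusted p = 0.0226 by the authors' DESeq2 test), and 1.13% of heart features with an adjusted p passed. At an unadjusted p below 0.05 the authors' deposited tables further held Mir34c and the leukocyte precursor Mir150 in heart, Mir217 in kidney, and Mir449a in brain, liver and spleen. The share of all features past that threshold was 5.33% in heart, 4.5% in kidney, 3.9% in liver, 3.48% in spleen and 2.23% in brain. No neuronal, striated muscle, hepatocyte or kidney marker did so in any organ. Mir449a rested on 17 reads in liver and 20 in spleen, with means of 4.41 and 2.73, below the mean of 10 used elsewhere. Its fold change was negative in heart, at -1.28, and in kidney, at -1.58, with means of 6.62 and 3.07.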

How the data were processed

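Whole organs were pulverised, RNA was extracted with a phenol-based reagent and libraries were made with a NEXTflex small RNA kit, per the labels' protocols. The authors counted reads on GRCm39 with featureCounts (Subread 2.0.3) and tested them with DESeq2, per the submitters' processing notes. For the aligner, the annotation and reads that match several precursors, the methods are not given in the sources used. The authors deposited 1 table per organ: the mean is a signal, counts divided by size factors and averaged over the libraries, and the fold change and its standard error are log2 values, per the file headers. The Wald statistic is a score from which the deposited p-value and its adjusted form derive, per the file headers. The numerator genotype is not stated. Of 2195 rows, 1 without a name was dropped, with at most 1.82e-05% of a total. Unused columns with values per sample numbered 0.

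The design assumed counts per library if present, and the deposited tests were used instead. Levels are shares of the summed means of an organ, and the library SD in log2 units was taken from the deposited standard error, so scaling between organs adds error that it leaves out. This SD was not computed from the recovered reads and can differ from their spread. In heart it was 0.34 for both Mir200c and Mir200b, whose recovered counts ranged 1.33-fold and 1.98-fold. Neighbouring organs were called apart where their log2 difference exceeded the sum of their library SDs. Whole reads per library were solved from the deposited mean, fold change and standard error: size factors came from 267 to 454 features with means of 1 to 12 per organ, and a set of reads was accepted where a 2-group fit left a fold change difference below 2e-14 and fewer than 0.05 sets were expected by chance. When tested on simulated data, 116 of 125 sets were recovered correctly, 0 wrongly and 9 not at all. This count is not split by mean. Recovery at the means of the more abundant members was not tested separately, such as 4157 for Mir141 in kidney or 9213 for Mir200a in liver. The 2-group fit holds no batch or litter term. A library is called positive or negative by the sign of its effect on the fold change. In heart 355 of 1107 features carry an adjusted p in the authors' deposited table. Depth per library is known only as size factors, and the number of mice limits the precision.

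The 5 members are named in every organ, the 5 features nearest in profile to each cluster among those with a mean of at least 10 in their highest organ (1e-06 percent added before log2), and list members with a p below 0.05 or of highest mean. Other list members (Mir216a, Mir216b, Mir217, Mir183, Mir96, Mir31, Mir205, Mir375 and Mir34b) were chosen after their values were seen. The members and lists were chosen with earlier results of these data known. Sequences, hairpin positions and overlapping genes are those of GRCm38.p6, and all 5 members matched RefSeq by symbol, whereas the authors' build is GRCm39. Python 3.11.15, numpy 2.4.6, pandas 2.3.3, scipy 1.17.1, numba 0.67.0 and matplotlib 3.10.9 were used.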

Additional observations from a re-analysis of the deposited data

How the results depend on the processing

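The count of members past an adjusted p of 0.05 stayed at 0 in each of the 5 organs under the 20 settings tried (adjustment over all features or over those with a mean of at least 10, p from the statistic for every feature, and fold changes centred on the organ's median), and the count between organs stayed at 0 under 7. The ratio of the family share in kidney to that in brain, 1.75, was 1.76 over microRNA features alone, 3.18 by the median of ratios, 3.21 without the 10 highest features of each organ and 1.03 for the Mir200c/Mir141 cluster alone. Of the 5 features nearest in profile, 3 were shared for the first cluster and 2 for the second with 1e-04 percent added, and likewise with a mean of at least 100. An alternative added after seeing the data left out each library in turn from the recovered reads, and the log2 ratio of the group means changed sign in 10 of 15 pairs of member and organ. Mir141 ranged from 0.56 to 1.23 in kidney, from 0.40 to 1.42 in heart, from 0.32 to 1.19 in liver and from -1.08 to -0.07 in brain, and Mir200a from 0.20 to 0.71 in liver, with no change of sign. Those that changed sign ranged in heart from -0.43 to 0.36 for Mir200a, -0.24 to 0.23 for Mir200b, -0.60 to 0.54 for Mir429 and -0.08 to 0.12 for Mir200c, in liver from -0.04 to 0.36 for Mir429 and -0.08 to 0.98 for Mir200c, and in spleen from -0.29 to 0.45 for Mir200a, -0.29 to 0.41 for Mir429, -0.41 to 0.28 for Mir200c and -0.34 to 0.27 for Mir141. Counts of calls without each library were not run, since they need the reads of every feature. No paired analysis was possible because the recovered libraries cannot be tied to mice or litters. Precision is limited by depth for Mir141 in heart, with 6 to 82 reads per library.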
